A study of Mus musculus with 2 samples.

Results

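Regulators of apoptosis and necroptosis were followed in inflammatory monocytes of the inflamed mouse colon. The set comprised 8 listed genes: the nucleic acid sensor Zbp1, the kinases Ripk1 and Ripk3, the pore-forming effector Mlkl, the death receptor Fas, the protease Casp8, its inhibitor Cflar and the ubiquitin ligase Birc3. Each gene was taken at the probe set that carried its symbol alone and had the highest mean level. Of the 8 genes, 7 were measured in this way, among 22180 genes in all. No probe set was named Ripk1 in the annotation used, so Ripk1 was not analysed here. Each of the 7 genes had a single probe set, so no second probe set could check its difference.

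One group of monocytes came from Nlrp6-/- C57BL/6 mice, which lack the NOD-like receptor NLRP6, known as a sensor that can form inflammasomes, and the comparison cells came from WT C57BL/6 mice. Both groups had received the carcinogen azoxymethane at 10 mg/kg and, from day 5, 2% dextran sodium sulfate for 5 days, a sulfated polymer that injures the colon epithelium. Cells were taken from the colon lamina propria on day 10 by sorting CD11b-positive, Ly6C-high cells that lacked CD3 and Ly6G. Each genotype was represented by 1 array, the number and age of the mice were not given in the sources used here, and the deletion is not stated to be limited to a cell type. Without replicates, the differences below carry neither errors nor p-values, and each describes these 2 RNA samples. In such bulk samples, fewer cells of a type and less RNA per cell cannot be told apart.

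Cell death by these genes is decided at a few protein platforms. A death receptor such as Fas or the TNF receptor recruits adaptors and caspase-8, which starts apoptosis, while c-FLIP (Cflar) and cIAP2 (Birc3) restrain it. Where caspase-8 is not active, RIPK1 or ZBP1 can engage RIPK3, which phosphorylates MLKL so that the membrane is breached in necroptosis. ZBP1 is a sensor of left-handed nucleic acids, and its gene is induced by interferon. In macrophages and monocytes, these routes also meet the pyroptosis machinery.

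Levels are log2 values from robust multiarray average (RMA). Levels of different genes come from different probes and are not compared with each other. The detection floor was set from 1405 probe sets of olfactory and vomeronasal receptor genes, at their 95th percentile, and lay at 3.22 in Nlrp6-/- and 3.26 in WT. Nlrp6 itself was under it on both arrays, at 2.67 in Nlrp6-/- and 2.32 in WT, so it gave no check of the genotype labels. Levels of all probe sets on the arrays correlated with r = 0.977, across probe sets that are not replicates. All 7 death regulators were above both floors, by 2.11 or more on the log2 scale.

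Zbp1 and Casp8 were the members furthest above their WT level, Mlkl followed at a smaller distance, and Ripk3 and Cflar lay slightly below WT. Fas and Birc3 hardly differed. None of the 7 genes reached 1.5-fold, the size used here to count a gene as different, in either direction. Across the 9536 genes above the floor on at least 1 array, the share past 1.5-fold was 6.21% on the higher side in Nlrp6-/- and 3.05% on the lower side. At 2-fold, 0 of the 7 genes were counted, against 1.61% of all genes on the higher side and 0.325% on the lower side. The median difference of the 7 genes was 0.01, and that of all 9536 genes was 0.01 as well.

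**Figure D1:**
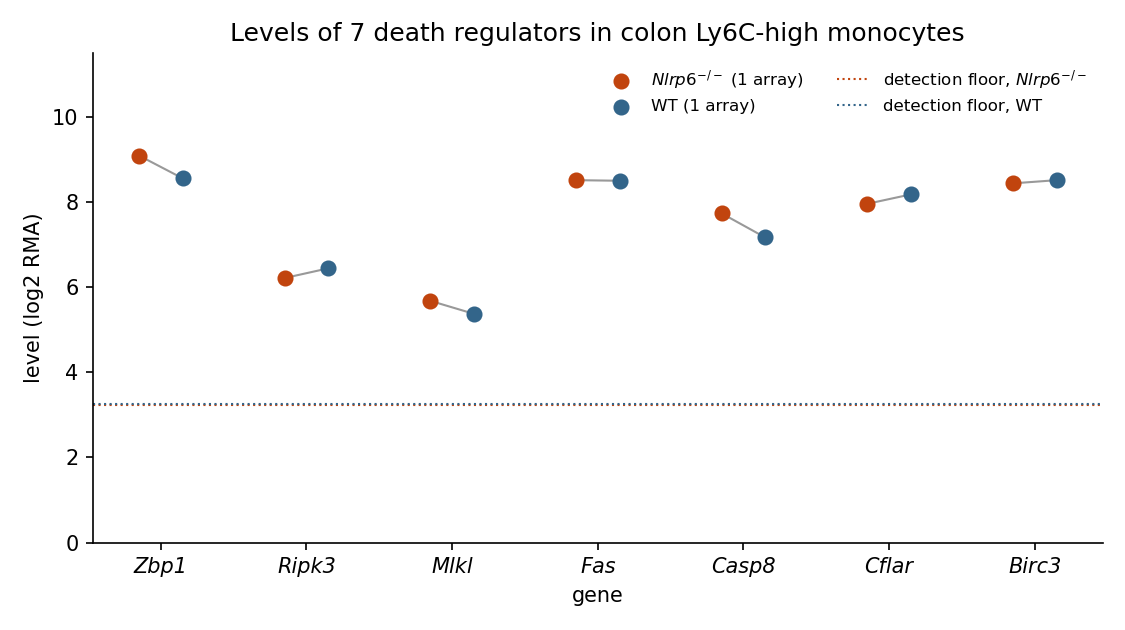
Log2 RMA level of each of the 7 measured genes (vertical axis) in the Nlrp6-/- array (orange, left of each pair) and the WT array (blue, right), with the detection floors dotted. All points lie above the floors, and the pairs of Zbp1 and Casp8 are the furthest apart, at 0.54 and 0.57.

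Zbp1, the sensor that recruits RIPK3, had a level of 9.09 in Nlrp6-/- and 8.56 in WT. It was 1.45-fold higher in Nlrp6-/-, a log2 difference of 0.54, and 12.4% of the 8567 genes above both floors differed by at least as much in one direction or the other. Ripk3, the kinase that acts on MLKL, was at 6.21 in Nlrp6-/- and 6.44 in WT, a difference of -0.23. Differences of that size or more were seen for 46.4% of genes. Mlkl, the executioner of necroptosis, was at 5.68 in Nlrp6-/- and 5.37 in WT, which is 1.24-fold higher, and 33.9% of genes differed by as much. The sensor and the executioner were thus on the higher side in the Nlrp6-/- sample and the kinase between them on the lower side. The differences of Zbp1 and Ripk3 lay 0.76 apart on the log2 scale, and how many gene pairs lay as far apart was not counted.

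On the apoptotic arm, Fas, the receptor for Fas ligand, was at 8.51 in Nlrp6-/- and 8.50 in WT. Its difference of 0.01 was exceeded in size by most genes, since 95.9% of them differed by at least as much. Casp8, the initiator protease that starts apoptosis and blocks necroptosis by cleaving RIPK1 and RIPK3, was at 7.73 in Nlrp6-/- and 7.17 in WT. Its difference of 0.57, or 1.48-fold, was the largest of the 7 and lay 0.02 short of 1.5-fold. Of all genes above both floors, 10.6% differed by at least that much, and Casp8 ranked 589 from the highest. Cflar, a caspase-8 relative without protease activity that limits caspase-8 at the receptor, was at 7.96 in Nlrp6-/- and 8.18 in WT. Its difference of -0.22 was matched or exceeded in size by 47.7% of genes. The differences of Casp8 and its inhibitor lay 0.79 apart on the log2 scale, a gap likewise not set against those of other gene pairs. Birc3, which encodes cIAP2 and attaches ubiquitin to RIPK1, was at 8.44 in Nlrp6-/- and 8.51 in WT, a difference of -0.08.

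**Figure D2:**
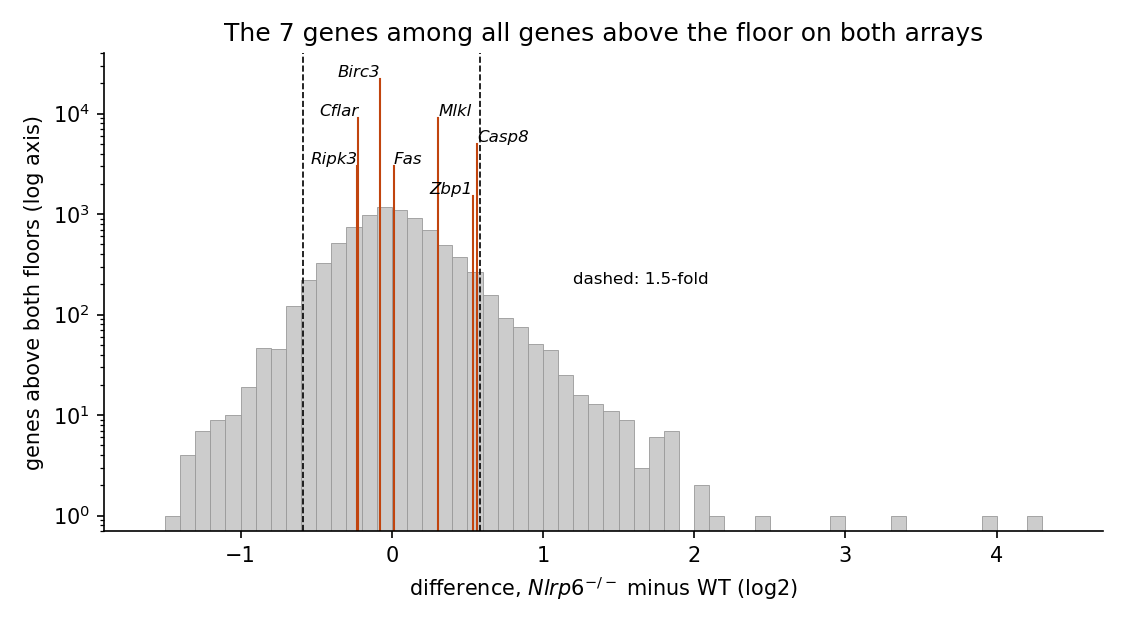
Histogram of the log2 difference, Nlrp6-/- minus WT, over the 8567 genes above both floors (count on a log axis), with the 7 genes as orange lines and 1.5-fold as dashed lines. All 7 lie between the dashed lines, and Casp8 and Zbp1 lie close to the upper one.

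Casp8 and Cflar are neighbours on mouse chromosome 1, with 1 long non-coding RNA gene and no protein-coding gene between them in the RefSeq gene order. Their start regions are shown because these adjacent genes differed in opposite directions while the interferon-stimulated genes, described further on, were higher as a group. RefSeq promoter windows of assembly GRCm38.p6, covering 250 bases before and 50 after a start, were found for 7 of the 8 genes, in 8 windows. Zbp1 had none and was not searched. They were searched on both strands for GAAA, any 2 bases and GAAA again, the core letters of the interferon-stimulated response element, and for the NF-kB letters GGG, any 2 bases and TTTCC. The interferon letters were present in 3.44% of all 32851 windows and in 2 of the 8 windows here, those of Cflar and Ripk1. The closer spacing, with 1 base between the GAAA pair, was added after the sequences had been read and was present in 3.17% of all windows and in 1 of the 8, that of Casp8. Of all windows, 110 held both spacings. The NF-kB letters were in none of the 8 windows, against 1.63% of all windows, and 0.155% where the 2 free bases are AC. Among 36 windows of the listed interferon-stimulated genes, 12 held the spacing of 2 bases and 11 the closer one. The stretches below run 5′ to 3′ on the strand of the gene, with the matched letters in capitals. The interferon-stimulated gene Ifit1 is given for comparison with Cflar, as its window held no match of the closer spacing. In Cflar and Ifit1 the match is on the opposite strand.
Casp8, chr1:58802368-58802427, plus strand: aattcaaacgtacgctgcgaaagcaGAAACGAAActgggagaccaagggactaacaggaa
Cflar, chr1:58711487-58711516, plus strand: ccacgtctgcTTTCGGTTTCtgggcgtctc
Ifit1, chr19:34640775-34640804, plus strand: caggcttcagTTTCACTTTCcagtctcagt
Counting the first transcribed base as 1, the Casp8 match covers positions -109 to -101 relative to its start, the Cflar match positions 7 to 16 and the Ifit1 match positions -104 to -95. Ifit1 held a further match, at positions -85 to -76, of which only the first base lies in the stretch shown. The Casp8 window belongs to a start inside the annotated gene, so other starts of the gene were not searched. Whether either spacing bears on the differences of Casp8 (0.57) and Cflar (-0.22) was not tested. The letters describe the sequence and do not mark a bound site.

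Among 34 type I interferon-stimulated genes measured, a list that held none of the 8 genes, 34 lay above their WT level, 27 of them by 1.5-fold or more, and the median difference was 0.94. The 3 furthest apart were the nucleotide kinase Cmpk2 at 2.10, the ISG15 protease Usp18 at 1.84 and the antiviral effector Ifit1 at 1.75. Zbp1 and Casp8 lay at the low end of this list: 27 of its 34 genes had a larger difference than either. Mlkl was exceeded by 32 of the 34, and Ripk3, Cflar, Fas and Birc3 by all 34. Of the interferon-stimulated genes, 4 with roles in cell death were picked out after their values were seen. Daxx, a death domain-associated protein that binds Fas, was at 8.42 in Nlrp6-/- and 6.92 in WT, 2.83-fold higher in Nlrp6-/-. The nuclear body protein Pml was higher by 1.32, the RNA-activated kinase Eif2ak2 by 1.31, and Xaf1, which antagonises the caspase inhibitor XIAP, by 1.00. Among the 34 genes, 27 were further apart than Casp8, so these 4 were not particular in that.

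Fas, Cflar and Birc3 are also known as targets of NF-kB, which TNF activates. A list of other NF-kB response genes left out those placed in the death receptor and TNF receptor lists below, such as Ltb and Tnip1. Its 21 measured genes had a median difference of -0.06, and 0 of them were 1.5-fold apart in either direction. The furthest were the chemokine Ccl4 at 0.56, the co-regulator Bcl3 at -0.37 and Tnfaip2 at -0.26. Cflar lay near the low end, exceeded by 19 of the 21, while Fas was exceeded by 5 and Birc3 by 11.

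**Figure D3:**
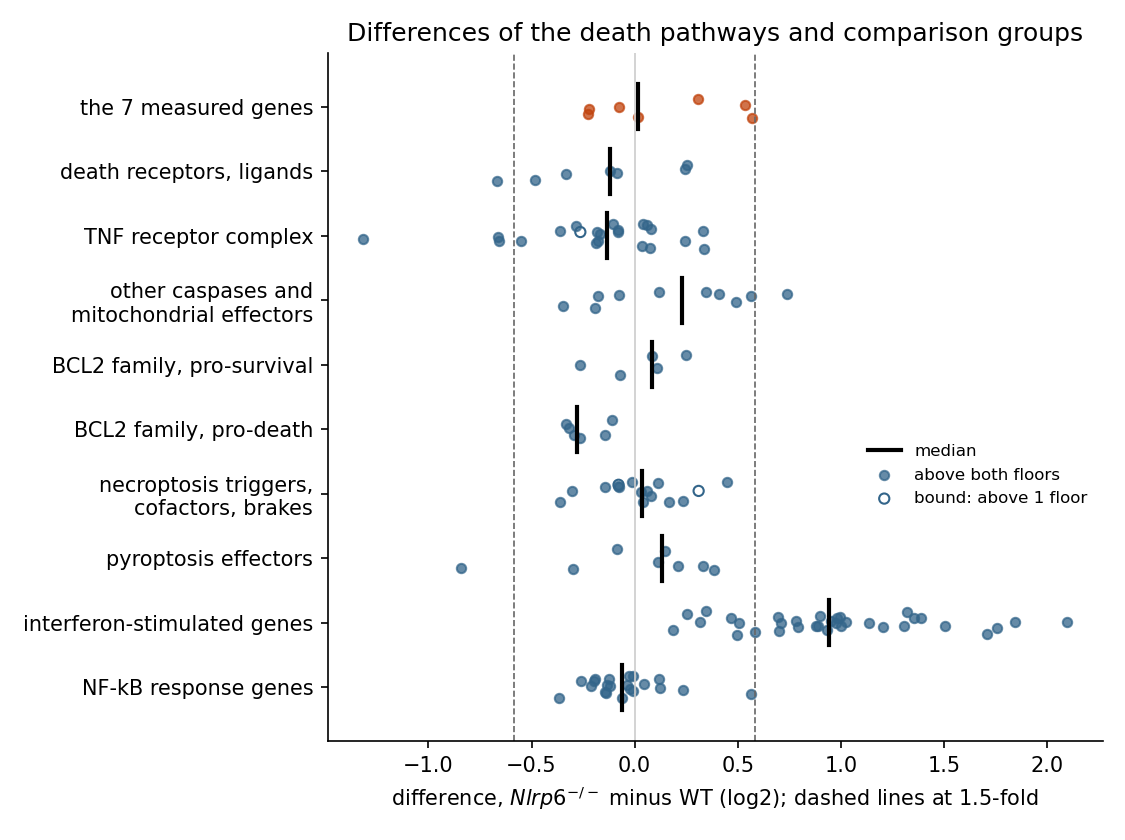
Log2 difference, Nlrp6-/- minus WT, of each gene above at least 1 floor (points; open where the gene was above 1 floor and the value is a bound), by gene group, with the median of each group as a black bar and 1.5-fold dashed. The interferon-stimulated genes lie to the right, with a median of 0.94, while the medians of the NF-kB response genes, the 7 genes and the 7 death pathway groups lie between -0.28 and 0.23.

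Upstream of Casp8 and Fas, 7 of 15 listed death receptors and ligands were above a floor. Of these 0 were at least 1.5-fold higher and 1 lower, and the median difference was -0.12. When the floor was raised to the 99th percentile (the stricter floor), the median was -0.23 and 0 were lower. Only Tnf, Tnfrsf1a, Tnfrsf1b and Ltbr stayed above that floor. Tnf, the ligand that assembles the RIPK1 complex, was at 8.75 in Nlrp6-/- and 9.23 in WT, and its receptor Tnfrsf1a was at 6.16 in Nlrp6-/- and 6.49 in WT. Lymphotoxin-beta (Ltb) was the gene past 1.5-fold, at 3.61 in Nlrp6-/- and 4.28 in WT, a difference of -0.67. Tnfsf15, another ligand of the family, differed by 0.25. Fasl, the ligand of Fas, and Tnfsf10, which encodes TRAIL, were below the floor on both arrays, so no difference could be read for them.

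The partners of RIPK1 and Birc3 at the TNF receptor were measured for 22 of 27 listed genes. None was at least 1.5-fold higher, 3 were at least 1.5-fold lower, and the median was -0.14. The lowest was Ikbkg, which encodes NEMO, the ubiquitin-binding subunit of the IKK complex, at 4.85 in Nlrp6-/- and 6.17 in WT. It was followed by Otulin, the enzyme that removes linear ubiquitin chains, and Tnip1, a ubiquitin-binding partner of A20, each at -0.66. Traf2, the adaptor that brings cIAP proteins to the receptor, was at 5.40 in Nlrp6-/- and 5.95 in WT, a difference of -0.55. The subunits of the complex that builds linear chains differed by 0.34 (Rnf31), 0.24 (Sharpin) and -0.10 (Rbck1). The deubiquitinase Cyld was at -0.29, Tnfaip3, which encodes A20, at -0.17, and Birc2, the paralog of Birc3 that encodes cIAP1, at 0.33. Fadd, the adaptor that joins caspase-8 to the receptor, was below the floor on both arrays.

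Downstream of Casp8, 10 of 13 listed caspases, apoptosome and mitochondrial proteins were measured, with 1 at least 1.5-fold higher, 0 lower and a median of 0.23. With the stricter floor the median was 0.45 and 0 were higher. That median rests on Apaf1, Cycs, Htra2 and Casp6, and Casp6 was above that floor on the Nlrp6-/- array only. Casp6, an executioner caspase, was at 5.10 in Nlrp6-/- and 4.36 in WT, a difference of 0.74. The mitochondrial protease Htra2 was higher by 0.56, the nuclease Endog by 0.49 and Aifm1, the apoptosis-inducing factor, by 0.41. In the BCL2 family, which controls the mitochondrial route, 0 of 5 pro-survival genes measured, of 8 listed, and 0 of 6 pro-death genes measured, of 11 listed, were 1.5-fold apart. The 6 pro-death genes had differences from -0.33 to -0.11, with a median of -0.28, or -0.14 with the stricter floor. Only Bak1, Bad and Bcl2l11 stayed above the stricter floor. Of all genes above both floors, 34.1% had a difference of -0.11 or lower. The pro-death genes included Bid, which caspase-8 cleaves, at 4.57 in Nlrp6-/- and 4.91 in WT. Bmf was at -0.32, Pmaip1 at -0.29 and the pore-former Bak1 at -0.27. The pro-survival genes had a median of 0.09, with Bcl2 at 0.25, Mcl1 at 0.11, Bcl2l2 at 0.09 and Bcl2a1a at -0.26. With the stricter floor their median was -0.08, over Mcl1 and Bcl2a1a alone. Bcl2a1a has near-identical copies, so its value may include theirs.

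Around Ripk3 and Mlkl, 16 of 20 listed triggers, cofactors and brakes of necroptosis were measured. None was 1.5-fold apart and the median was 0.03. The membrane-repair subunit Chmp4b was at 8.74 in Nlrp6-/- and 8.30 in WT. The lipopolysaccharide receptor Tlr4 was at -0.36 and the adaptor Sdcbp at -0.30. Tlr3, a receptor for double-stranded RNA that can engage RIPK3, was above the floor in Nlrp6-/- only, at 3.57, against 2.69 in WT, and was at least 1.24-fold higher. Of 8 pyroptosis genes measured, 0 were at least 1.5-fold higher and 1 lower, with a median of 0.13. Ninj1, which ruptures the membrane of dying cells, was at 6.59 in Nlrp6-/- and 7.43 in WT, a difference of -0.84. Casp1 was higher by 0.39 and Aim2 by 0.33, while Nlrp3 was at -0.30 and Gsdmd, which caspase-8 can cleave, at 0.15.

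Markers of the sorted monocytes and of other cells were read on the same arrays. Of 13 monocyte markers with a probe set 12 were above a floor, among them Ly6c2, at 9.36 in Nlrp6-/- and 9.06 in WT, and Fcgr1 and F13a1 were at least 1.5-fold higher. Of the 12, 6 lay above their WT level and 6 below it, the lowest being Lyz2 at -0.33 and Cd14 at -0.22. Summed on the linear scale, the monocyte markers reached 6380 in Nlrp6-/- and 6699 in WT. All such sums include the markers below the floors, and genes with high levels weigh most in them. The epithelial markers summed to 778 in Nlrp6-/- and 346 in WT, with 10 of 14 measured at least 1.5-fold higher, Epcam being at 5.74 in Nlrp6-/- and 4.71 in WT. Lypd8 was higher by 1.87 and Muc13 by 1.79. B and plasma cell markers summed to 1659 in Nlrp6-/- and 984 in WT (4 of 8 at least 1.5-fold higher). The plasma cell genes Mzb1 and Jchain were higher by 1.62 and 0.88, and Jchain made up most of both sums. The B cell receptor genes Cd79a and Cd79b were above both floors, with differences of 0.74 and 0.14, and Ms4a1 and Pax5 were below both. Stromal and endothelial markers summed to 1313 in Nlrp6-/- and 723 in WT (4 of 12 higher), with Mgp higher by 1.45, Col1a2 by 1.19 and Col1a1 at 0.05. No endothelial marker was among those 4: Pecam1 was at 0.24, Kdr at 0.19 and Cdh5 at -0.39, and Vwf was below both floors. Of the 12, 8 lay above their WT level. The other 4 were Cdh5 and the stromal markers Acta2 (-0.16), Pdgfra (-0.08) and Des (-0.05). Neutrophil markers summed to 1053 in Nlrp6-/- and 777 in WT (4 of 8 higher). Csf3r, the largest term of both sums, differed by -0.05. S100a8 and S100a9, which monocytes can express too, were higher by 1.16 and 1.03, Lcn2 by 0.87, and Retnlg was at least 3.85-fold higher. Ly6g was at 3.58 in Nlrp6-/- and 3.32 in WT, Mmp8 differed by -0.17, and Elane, Mpo, Ltf, Ngp, Camp and Mmp9 were below both floors. T and NK cell markers summed to 182 in Nlrp6-/- and 156 in WT (1 of 7 higher), with Gzmb higher by 0.87, Cd3d at 0.46 and Cd3e at -0.23. Dendritic markers summed to 603 in Nlrp6-/- and 620 in WT (0 of 3 at least 1.5-fold higher). Cd209a was at -0.43, Ccr7 at -0.13 and Irf8 at 0.12. Below both floors were 6 genes, Flt3, Xcr1 and Zbtb46 among them. No gene of these marker lists was at least 1.5-fold lower. Epithelial and stromal cells can express Casp8 and Fas, and the part of these cells in the differences of the 7 genes was not tested.

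The differences of the 7 genes were recomputed with the arrays rescaled in 3 ways. The other floors and the averaging of probe sets could not move them, since each gene has 1 probe set and lies above every floor tried. Casp8 ranged from 0.56 to 0.59 and reached 1.5-fold once, when a loess curve fitted to the differences was removed. Zbp1 ranged from 0.51 to 0.55, Mlkl from 0.27 to 0.31, Ripk3 from -0.25 to -0.23 and Cflar from -0.23 to -0.20. These ranges cover scaling only and not the spread between mice, which 1 array per genotype cannot show.

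**Figure D4:**
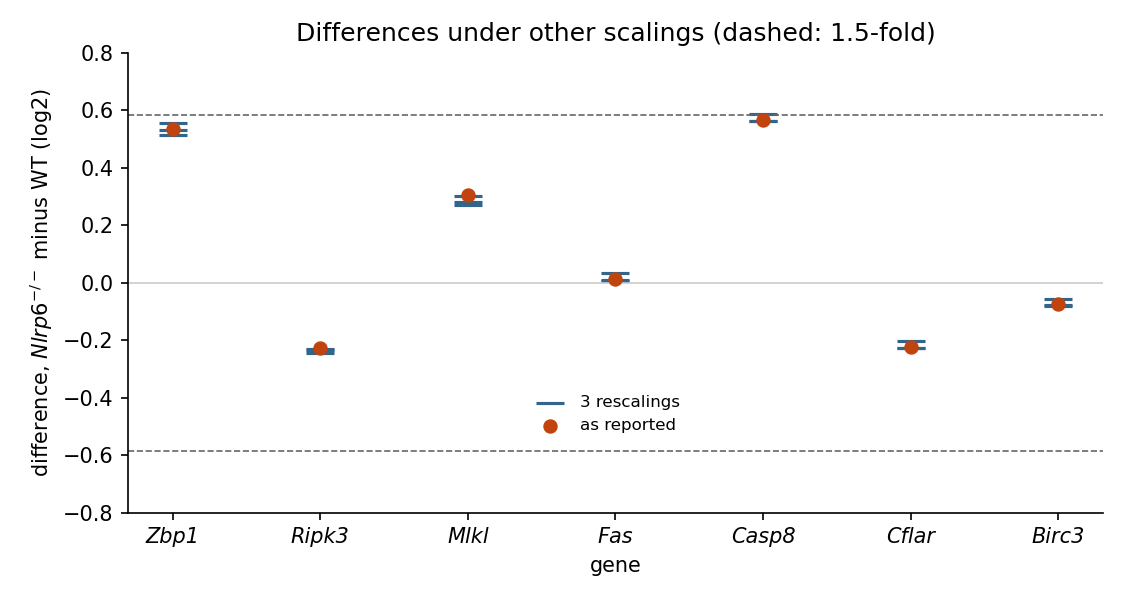
Log2 difference, Nlrp6-/- minus WT, of each of the 7 genes as reported (orange) and under 3 rescalings (blue bars), with 1.5-fold dashed. No gene changed sign, and only Casp8 touched a dashed line.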

How the data were processed

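RNA of sorted cells was measured on 1 Affymetrix Mouse Gene 2.1 ST array per genotype, grouped by the genotype in the labels. Per the labels' protocols, 10 ng of RNA was amplified, and the authors computed expression by RMA with the oligo package in R 2.15.1. The deposited table holds log2 levels per probe set and array. RMA equalises the distributions of arrays, so a shift of all transcripts cannot be seen. Array medians were 2.84 in Nlrp6-/- and 2.87 in WT.

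Of 41345 probe sets, 23521 had 1 symbol in the platform annotation and 1814 had several, and the others had none. Differences are Nlrp6-/- minus WT. Where a single array fell under the floor, the difference is a bound: the other level against the larger of that floor and the measured level. List medians used measured levels. No test was run. The number of arrays limits the precision. Differences of the receptor probe sets had an SD of 0.19.

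The 8 genes and all lists were chosen with earlier results of these data known. Named genes were the members, Nlrp6, up to 4 genes per pathway list, 3 per comparison list and 2 plus the first per marker list, by size of difference. Named after their values were seen were Daxx, Pml, Eif2ak2, Xaf1, Rnf31, Sharpin, Rbck1, Cyld, Tnfaip3, Birc2, Gsdmd, Trak2, S100a9, Lcn2, Mmp8, Cd79a, Cd79b and genes below the floor. So were Lyz2, Cd14, Pecam1, Kdr, Cdh5, Acta2, Pdgfra, Des, Csf3r, Irf8 and the genes given as left above the stricter floor. Genes alike in pattern were not sought, since 2 arrays give a single difference. A planned description of the proteins was not made. Scripts used Python 3.11.15, pandas 2.3.3 and statsmodels 0.14.6 and were tested on simulated data.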

Additional observations from a re-analysis of the deposited data

How the results depend on the processing

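With 1 array per genotype, no processing choice can stand in for the spread between mice, and the limit on these values is the number of arrays. Of 242 values recomputed under 7 alternatives, 231 moved by less than the receptor probe sets' SD or, for counts, by no more than 1.5 times, and no value past 1.5-fold changed sign. The 42 values of the 7 genes were among the 231, but 21 of them, under other floors and averaged probe sets, equal the reported ones by construction. The count of the 8 genes at least 1.5-fold higher was 1 instead of 0 after the loess curve (span 0.3) was subtracted, since Casp8 lay 0.02 from that size. With the floor at the 99th percentile, where 4950 genes were compared, 0 death receptors and ligands were lower and 0 caspases and mitochondrial effectors higher, and the median of the caspase list was 0.45. At that floor the pro-survival BCL2 median changed sign to -0.08, and the medians of pro-death BCL2 genes and of death receptors were -0.14 and -0.23. Few genes of these lists stayed above that floor, and of the pro-survival list only Mcl1 and Bcl2a1a did. Without a floor, 1 necroptosis gene was higher. With probe sets averaged, 2 caspases and mitochondrial effectors were higher. At 2-fold, 13 interferon-stimulated genes and 0 caspases and mitochondrial effectors were higher, and 1 gene of the TNF receptor complex, 0 death receptors and ligands and 0 pyroptosis genes were lower. At 2-fold 154 genes in all were higher and 31 lower. No paired analysis was possible because each genotype had 1 array.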

Other observations

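Some death regulators were read by probe sets that carry several symbols and so enter no gene's value above. The probe set shared by Bcl2a1d, Bcl2a1a and Bcl2a1b, pro-survival paralogs of the BCL2 family, was at 10.08 in Nlrp6-/- and 10.19 in WT. The one shared by Bcl2a1b and Bcl2a1a was at 9.39 in Nlrp6-/- and 9.28 in WT. These differences, -0.12 and 0.11, and that of the Bcl2a1a probe set, -0.26, do not share a sign. The probe set of Stub1, a ubiquitin ligase that lowers RIPK3, and Jmjd8 was at 6.20 in Nlrp6-/- and 5.87 in WT. That of Spata2, which links CYLD to the TNF receptor complex, and Rnf114 was at 5.24 in Nlrp6-/- and 5.28 in WT.

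Near the Casp8 and Cflar pair on chromosome 1, the measured protein-coding gene Trak2, a mitochondrial transport adaptor, was at 4.87 in Nlrp6-/- and 5.35 in WT, a difference of -0.48. None of the 8 genes lies on chromosome 7, which carries Nlrp6.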
